A study of Mus musculus with 28 samples.

Results

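Transcripts of 10 transcription factors were followed through the healing of a back skin wound in mice. They are En1, Prrx1, Twist1, Twist2, Tcf4, Snai1, Snai2, Zeb1, Zeb2 and Runx2, which mark the dermal fibroblast lineage or drive epithelial to mesenchymal transition (EMT). They were taken by symbol from 29068 genes in the deposited table, and all 10 were among the 18107 genes that passed the filter on low counts. RNA of the wound site was sequenced on days 0, 3, 5, 7, 10, 12 and 14, with 4 libraries a day and 28 libraries in all. The labels give C57BL/6J as the genotype, skin as the tissue and natural wound healing as the treatment of every library, and name day 0 as the control. The study describes these mice as MLKL+/+ and counts the day of injury as day 1. The wound was a full-thickness punch on the shaved back that reached the fascia, and the study collected the whole site with scab and margins. All 7 days therefore share the genotype and the labelled treatment and differ in the labelled day. The labels do not say which libraries came from separate mice, so the P-values measure the spread between libraries, part of which may be technical.

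EMT is the loss of epithelial junctions and polarity with a gain of motility and matrix production. The zinc finger repressors Snai1 and Snai2 and the zinc finger homeodomain repressors Zeb1 and Zeb2 bind E-box motifs of epithelial genes, and the basic helix-loop-helix factors Twist1 and Twist2 act in the same programme. Most of these factors are also expressed by fibroblasts and other mesenchymal cells that never were epithelial. En1 is a homeobox gene whose embryonic expression marks a scar-forming fibroblast lineage of the back, Prrx1 is a homeobox gene of mesenchymal progenitors, and Twist2 is also known as Dermo1 for its place in the dermis. Tcf4 is an E protein that pairs with other helix-loop-helix factors and is not the Wnt pathway gene Tcf7l2, which shares the alias. Runx2 is the master regulator of bone-forming cells and is present in other connective tissue.

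Levels are given in CPM, the share of a library's counts scaled to a common total after TMM normalization (trimmed mean of M values). Fold changes are on the log2 scale with their standard error (SE). A transcript was called changed at an adjusted p under 0.05, taken from the quasi-likelihood test of edgeR and adjusted by the Benjamini-Hochberg method across the 18107 genes. Library totals ran from 36706513 to 40655764 counts. The day 0 libraries were far less alike than the others, with a biological coefficient of variation of 26.4% against 5.70% to 10.8% on the 6 wound days. Day 0 replicates 2 and 3 held 57236 and 54994 CPM of 7 dermal fibroblast markers (Col1a1, Col1a2, Col3a1, Pdgfra, Lum, Dcn and Dpt), and replicates 1 and 4 held 25545 and 14698. Fibroblasts were thus well represented in every library, and the sum lay at 21839 to 23946 at day 3, 55902 to 56934 at day 7 and 16388 to 19578 at day 14. Of the counted markers of the other 14 cell types checked, none was at 0 through all libraries of a day. A few counts suffice for that, and the 8 hair follicle markers summed to only 4.02 to 10.4 CPM at day 3. The check thus does not show that each of these cell types was present on every day. In bulk RNA, fewer cells of a type and less RNA per cell cannot be told apart. All 6 comparisons with day 0 share the same 4 day 0 libraries.

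Against day 0 the 10 transcripts moved in both directions on day 3, near the shares of all genes, and 7 of them were lower on day 14. On day 3, 3 rose (Snai1, Zeb2 and Runx2), 3 fell (Twist1, Snai2 and Tcf4) and 4 passed in neither direction, where 31.8% of all genes tested were higher and 34.8% lower. On day 5, 4 rose (Snai1, Zeb1, Zeb2 and Runx2) and Twist1 fell, against 29% and 30.6% of all genes. On day 7, 6 rose (Prrx1, Twist2, Snai1, Snai2, Zeb1 and Runx2) and 0 fell, against 25.6% and 24.8% of all genes. On day 10, 5 rose (En1, Twist2, Snai1, Snai2 and Runx2) and 0 fell, against 23.5% and 26.9%. On both days 0 members were also lower by edgeR at an unadjusted p under 0.05, and 0 by DESeq2 or limma. On day 12, 3 rose (Snai1, Snai2 and Runx2) and 3 fell (Twist1, Zeb1 and Zeb2), against 21.7% and 25.6%. The 3 falls of day 12 were lost with library totals only and with limma, which called 4 higher and 0 lower, and with only the 8 libraries compared, which called 3 and 0. Of all genes, 33.6% were higher and 16.3% lower with library totals and 18.1% and 21.5% with the 8 libraries, and the share under limma was not taken. On day 14, 7 fell (En1, Prrx1, Twist1, Twist2, Zeb1, Zeb2 and Tcf4) and 2 rose (Snai2 and Runx2), against 34.5% of all genes lower and 28.2% higher. Each of the 7 had all 4 day 14 libraries below all 4 day 0 libraries, as had 27.3% of all genes. The median log2 fold change of the 10 transcripts went from 0.013 at day 3 through 0.36 at day 7 to −0.69 at day 14, where the median over all genes tested stayed between −0.056 and 0.0024. Dividing counts by the library totals alone moved the median of all genes by 0.14 on day 12 and 0.13 on day 14. It turned the direction of En1 at day 12, and 7 rather than 5 members were called higher at day 10 (27.6% of all genes) and 3 rather than 4 at day 5 (26.6%).

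**Figure D1:**
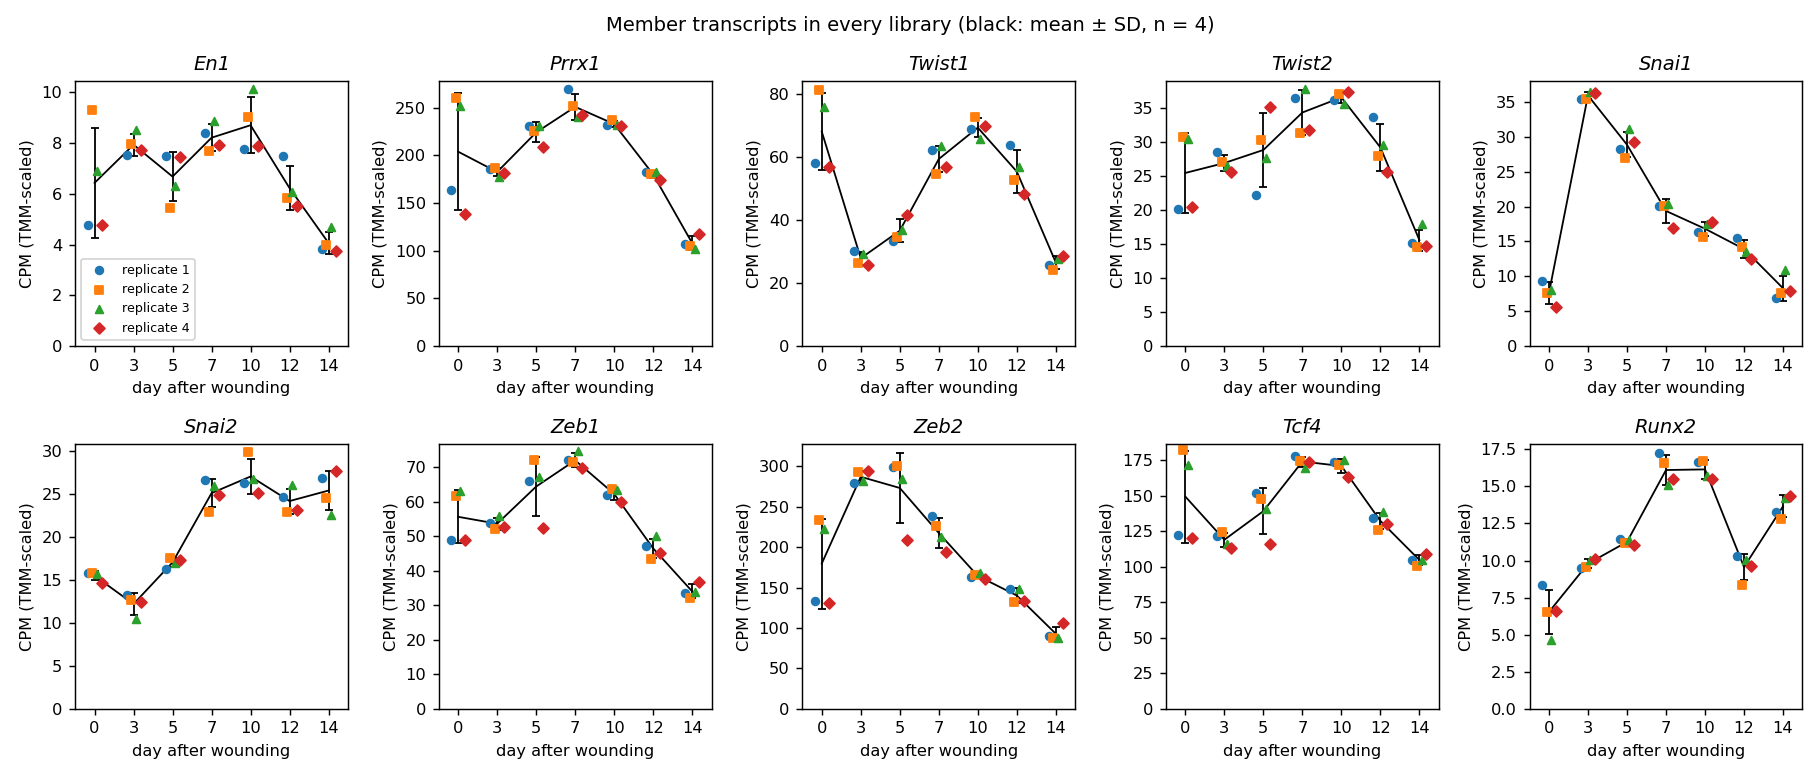
Level of each of the 10 transcripts (CPM, linear axis from 0) in every library by day, with 1 marker shape for each replicate number; the black line joins the means of 4 libraries and the bars are SD. Snai1 peaked at day 3, Snai2 reached a plateau from day 7, and Prrx1, Twist2, Zeb1 and Tcf4 were highest at day 7 or 10 and lowest at day 14.

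The changes were mostly small. By the study's own limits, which ask for more than 1.5 on the log2 scale, up or down, and P under 0.05, only Snai1 passed, and it did so on days 3 and 5 alone. Of all genes tested, 18.9% passed these limits at day 3, 13.9% at day 5, 9.4% at day 7, 9.47% at day 10, 7.39% at day 12 and 14% at day 14. In a joint test over all 7 days every one of the 10 transcripts passed, as did 89.5% of all genes, and in a joint test over the 6 wound days alone all 10 again passed beside 85.1% of all genes. Ranked by the F value of the first test among 18107 genes, Snai1 stood at 1367, Twist1 at 2262 and Snai2 at 2330, while Tcf4 stood at 8099 and En1 at 10511.

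**Figure D2:**
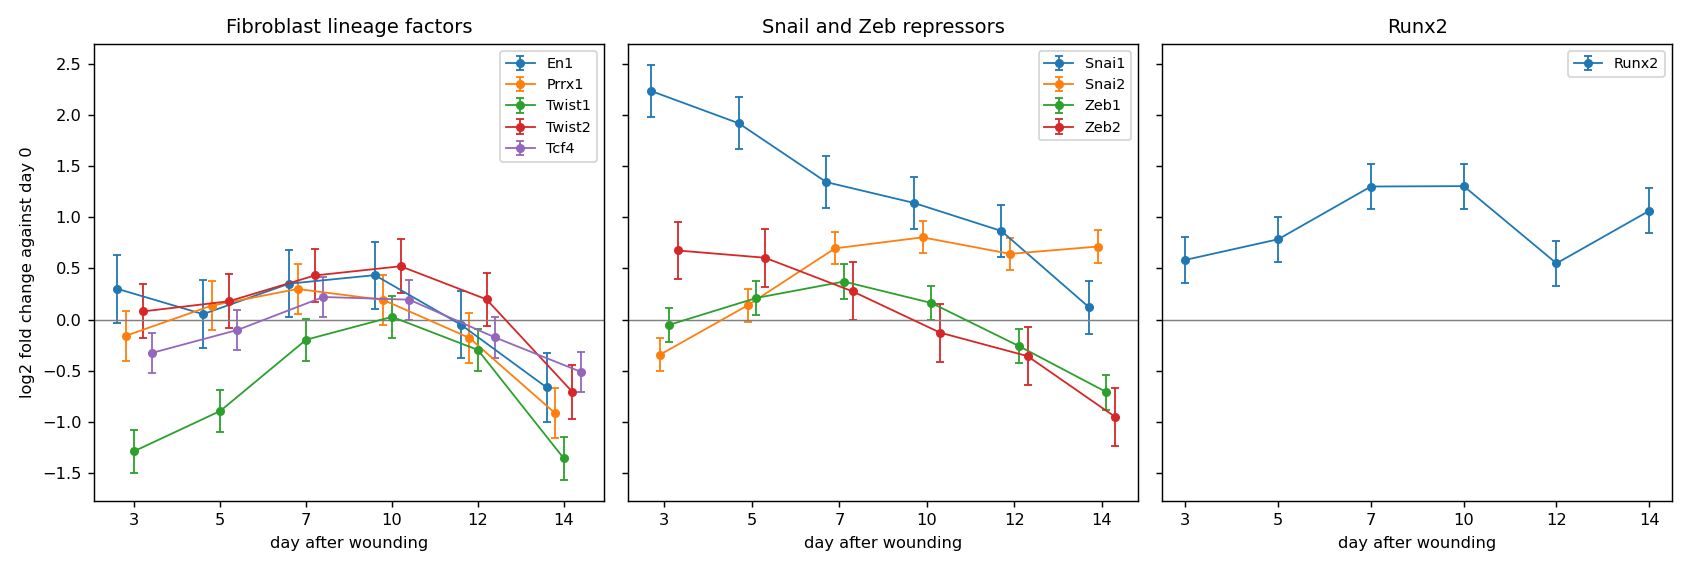
Log2 fold change of each transcript against day 0 (points) with its 95% interval (bars) from the edgeR fit of 28 libraries, in 3 panels for fibroblast lineage factors, Snail and Zeb repressors and Runx2. Snai1 fell from 2.24 at day 3 to 0.12 at day 14, Runx2 lay above 0 on all 6 days, and 7 transcripts lay below 0 at day 14.

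Snai1 showed the largest change of the 10. This repressor of Cdh1 lies on chromosome 2 at 167538195 to 167542814 (mm10, plus strand). Its level in the 4 day 0 libraries, in order of replicate, was 9.38, 7.56, 8.01 and 5.54 CPM. On day 3 the libraries held 35.5, 35.5, 36.4 and 36.3 CPM, all above every day 0 library, and agreed closely with each other. The rise was 4.71-fold (2.24 ± 0.12, edgeR adjusted p = 5.26e-15). The level then declined through 28.9 ± 1.75 CPM (SD, n = 4) at day 5, 19.4 ± 1.66 at day 7, 16.8 ± 1.02 at day 10 and 13.9 ± 1.30 at day 12. Over these days the log2 fold change against day 0 went from 1.92 (edgeR adjusted p = 2.02e-13) to 0.87 (edgeR adjusted p = 1.54e-06), with no overlap with day 0 on any of them. On day 14 the libraries held 6.85, 7.55, 10.9 and 7.88 CPM and overlapped the day 0 libraries. The difference there was 0.12 ± 0.12 with a 95% interval of -0.14 to 0.38 (edgeR adjusted p = 0.412), and without day 0 replicate 1 or day 14 replicate 3 it was -0.037 to 0.31 (edgeR adjusted p = 0.0296 to 0.802).

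Snai1 was the only 1 of the 7 members with a RefSeq promoter window (GRCm38.p6, 250 bases before to 50 after the start) that held the Snail and Zeb recognition motif, searched as CAGGTG and its reverse complement CACCTG, which are 1 motif read on both strands. The windows of En1, Prrx1, Twist1, Twist2, Zeb2 and Runx2 held neither spelling, and Snai2, Zeb1 and Tcf4 had no entry. Of all 32851 windows, 20.2% held the motif. The 250 bases before the start of Snai1 (chr2:167537945-167538194, plus strand) are shown because the gene changed most; capitals mark the motif, which begins 126 bases before the start.
Snai1: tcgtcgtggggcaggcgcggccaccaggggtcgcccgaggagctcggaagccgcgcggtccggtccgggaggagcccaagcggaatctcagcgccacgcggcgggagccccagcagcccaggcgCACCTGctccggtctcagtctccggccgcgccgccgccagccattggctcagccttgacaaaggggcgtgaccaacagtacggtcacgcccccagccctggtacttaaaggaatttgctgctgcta
The match describes the letters of this window, and binding was not measured.

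Snai2, the close relative of Snai1 that is also known as Slug, took the opposite early course. It lies on chromosome 16 at 14705852 to 14709385 (mm10, plus strand). The day 0 libraries held 15.8, 15.8, 15.7 and 14.7 CPM, and the day 3 libraries were all lower, at 13.3, 12.7, 10.4 and 12.5 CPM (-0.34 ± 0.077, edgeR adjusted p = 0.000323). On day 5 all 4 libraries, at 16.3 to 17.5 CPM, were above those of day 0, but the difference of 0.14 ± 0.076 did not pass (edgeR adjusted p = 0.121). From day 7 the level stood on a plateau, at 26.7, 22.97, 25.95 and 24.9 CPM on day 7 (0.70 ± 0.076, edgeR adjusted p = 1.21e-08) and 26.3, 29.9, 26.8 and 25.2 CPM on day 10 (0.80 ± 0.076, edgeR adjusted p = 1.05e-09). The plateau held on day 14, at 26.8, 24.6, 22.6 and 27.7 CPM (0.71 ± 0.076, edgeR adjusted p = 4.45e-09). Snai2 was thus still 1.64-fold above day 0 on the day when the fibroblast marker sum had its lowest median. The 6 melanocyte markers, a cell type in which Snai2 is also known, had a summed level of 71.9 to 130.5 CPM at day 0, 26.2 to 30.5 at day 3, 71.1 to 75.4 at day 7, 173 to 195 at day 10, 366 to 448 at day 12 and 727 to 888 at day 14, and their part in the course of Snai2 was not tested.

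Within each library the ratio of Snai1 to Snai2, taken between FPKM values, turned over during healing. It was 0.614 ± 0.113 (SD, n = 4) at day 0, 3.72 ± 0.456 at day 3, 2.12 ± 0.152 at day 5, 0.969 ± 0.102 at day 7 and 0.417 ± 0.129 at day 14. The ratio was chosen after the values had been seen and was not tested. The 4 day 3 ratios of 3.36 to 4.38 lay above all others, and those of day 14 (0.320 to 0.605) overlapped those of day 0 (0.472 to 0.745).

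**Figure D3:**
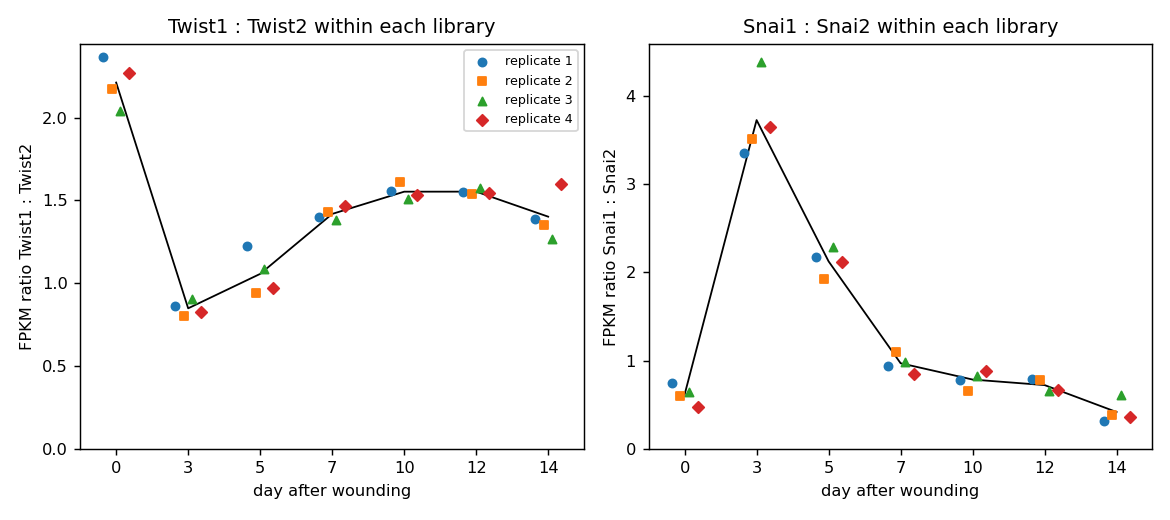
Ratio of FPKM values within each library (linear axis from 0) for Twist1 to Twist2 (left) and Snai1 to Snai2 (right) by day, with 1 marker shape for each replicate number and a line through the daily means of 4 libraries. On day 3 the first ratio fell to 0.80 to 0.90 and the second rose to 3.36 to 4.38.

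Twist1 and Twist2 did not move together in the first week. Twist1 lies on chromosome 12 at 33957671 to 33959829 and Twist2 on chromosome 1 at 91801461 to 91848028 (mm10, both plus strand). Twist1 stood at 58.2, 81.2, 75.9 and 56.9 CPM in the day 0 libraries and at 30.01, 26.4, 29.2 and 25.8 CPM in those of day 3, 0.410 times the day 0 level and without any overlap (-1.29 ± 0.10, edgeR adjusted p = 9.32e-12). It was still low on day 5, at 33.2, 34.7, 36.8 and 41.7 CPM (-0.89 ± 0.10, edgeR adjusted p = 1.29e-08). By day 10 it was back at 68.9, 72.8, 65.5 and 69.97 CPM, within the day 0 range, with a difference of 0.026 and an interval of -0.18 to 0.23 (edgeR adjusted p = 0.848). The decline to 63.9, 52.6, 56.9 and 48.1 CPM on day 12 was called against day 0 at -0.30 ± 0.10 (edgeR adjusted p = 0.0147), but without day 0 replicate 2 or 3 or day 12 replicate 4 it was -0.24 to -0.20 (edgeR adjusted p = 0.0649 to 0.1). On day 14 Twist1 was at 25.6, 24.1, 27.7 and 28.7 CPM, 0.390 times day 0 and close to the day 3 level (-1.36 ± 0.10, edgeR adjusted p = 5.31e-12). It was the lowest of the 10 fold changes of that day.

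Twist2 showed no early loss. Its libraries held 20.2, 30.7, 30.5 and 20.5 CPM on day 0 and 28.5, 26.98, 26.5 and 25.6 CPM on day 3, within the day 0 range (0.08 ± 0.13, interval -0.18 to 0.34, edgeR adjusted p = 0.595). The day 5 libraries were spread from 22.2 to 35.1 CPM. Twist2 was above every day 0 library on day 7, at 36.4, 31.3, 37.8 and 31.8 CPM (0.43 ± 0.13, edgeR adjusted p = 0.00561), and on day 10, at 36.2, 37.01, 35.6 and 37.4 CPM (0.52 ± 0.13, edgeR adjusted p = 0.00107). Without day 0 replicates 1 and 4 both calls were lost, at 0.17 (edgeR adjusted p = 0.233) on day 7 and 0.26 (edgeR adjusted p = 0.0611) on day 10. It fell below every day 0 library on day 14, at 15.1, 14.6, 17.9 and 14.7 CPM (-0.71 ± 0.13, edgeR adjusted p = 2.63e-05). Within a library the Twist1 to Twist2 ratio of FPKM values was 2.04 to 2.37 at day 0, 0.802 to 0.903 at day 3 and 1.51 to 1.61 at day 10, so it had not returned to the day 0 range when Twist1 itself had. An antisense transcript, Gm29100, covers 46.5% of the annotated exon bases of Twist2 and had no row in the table. The strand setting of the counting is not given in the sources used here, so reads of the 2 genes cannot be told apart.

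Zeb2 rose early and fell late. This repressor, which is also active in macrophages, lies on chromosome 2 at 44983632 to 45117395 (mm10, minus strand). Its day 0 libraries held 133, 233, 223 and 130.3 CPM, with replicates 2 and 3 far above replicates 1 and 4. On day 3 all 4 libraries were higher still, at 279, 293, 282 and 295 CPM (0.68 ± 0.14, edgeR adjusted p = 9.07e-05). On day 5 they held 299, 299.98, 284 and 209.5 CPM, replicate 4 being the low one and inside the day 0 range (0.60 ± 0.14, edgeR adjusted p = 0.000387). With only the 8 libraries of days 0 and 5 in the fit the call was lost, at 0.58 (edgeR adjusted p = 0.0529). The level passed back through 194 to 238 CPM on day 7 and 161 to 168 CPM on day 10, neither of which was called. On day 12 it was at 148, 132, 148 and 133 CPM, with replicates 2 and 4 near the lower day 0 pair (-0.36 ± 0.14, edgeR adjusted p = 0.0317), but without day 0 replicate 2 or 3 or day 12 replicate 2 or 4 it was -0.34 to -0.20 (edgeR adjusted p = 0.077 to 0.221). Without day 0 replicates 2 and 3 together it turned to 0.11 (edgeR adjusted p = 0.413). On day 14 it was at 90.3, 87.8, 87.7 and 106 CPM, below every day 0 library (-0.95 ± 0.14, edgeR adjusted p = 9.01e-07). The antisense gene Zeb2os overlaps 3.27% of the Zeb2 exon bases and had 139 to 388 counts a library, against at least 3572 for Zeb2.

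Macrophage and neutrophil markers were also high on day 3, whereas the 4 T or NK cell markers tested were all lower. Those 4 summed to 35.3 to 39.7 CPM at day 0 and 19.4 to 21.3 at day 3. The summed level of 7 macrophage markers was 1098 to 1548 CPM at day 0, 2737 to 2838 at day 3, 2612 to 2754 at day 5, 1777 to 1882 at day 7, 918 to 1023 at day 10, 1023 to 1134 at day 12 and 378 to 412 at day 14. All 7 were higher on days 3 and 5, 1 was higher and 6 lower on day 10, and all 7 were lower on day 14. The 6 neutrophil markers summed to 16.4 to 42.7 CPM at day 0, 4359 to 5503 at day 3, 539.8 to 955 at day 7, 222 to 247 at day 10, 20.3 to 23.2 at day 12 and 15.2 to 18.6 at day 14. Their part in the courses of Snai1 and Zeb2 was not tested.

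Zeb1 followed a shallower course with its highest level on day 7. The day 0 libraries held 48.9, 61.6, 63.1 and 48.99 CPM and those of day 3 53.95, 52.00, 55.9 and 52.7 CPM, inside the same range (-0.053 ± 0.081, edgeR adjusted p = 0.577). On day 5 they held 66.04, 72.1, 67.2 and 52.3 CPM, with replicate 4 apart from the others. The day 5 increase of 0.21 ± 0.081 passed (edgeR adjusted p = 0.0271), but without day 0 replicate 1 or 4 or day 5 replicate 1, 2 or 3 it was 0.15 to 0.20 (edgeR adjusted p = 0.0509 to 0.122). On day 7 all libraries, at 72.2, 71.4, 74.7 and 69.7 CPM, were above day 0 (0.37 ± 0.081, edgeR adjusted p = 0.000369). The day 12 decrease, at 47.3, 43.4, 50.02 and 45.2 CPM, was -0.26 ± 0.081 (edgeR adjusted p = 0.01), but without day 0 replicate 2 or 3 it was -0.20 to -0.19 (edgeR adjusted p = 0.0593 to 0.0723). On day 14 the libraries held 33.5, 32.01, 33.8 and 36.8 CPM, 0.611 times day 0 with no overlap (-0.71 ± 0.082, edgeR adjusted p = 2.16e-08). The early rise of Zeb2 therefore had no counterpart in Zeb1 on day 3, and the ratio of Zeb1 to Zeb2 counts was on average 0.77 lower on the log2 scale than on day 0, a difference chosen after seeing the values and not tested.

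Prrx1 lies on chromosome 1 at 163245119 to 163313710 (mm10, minus strand) and was split on day 0 more than on any later day. Its day 0 libraries held 164, 261, 252 and 139 CPM. The day 3 libraries held 185, 187, 177 and 181 CPM, between the 2 day 0 pairs, and were not called (-0.16 ± 0.12, edgeR adjusted p = 0.23). The level was highest on day 7, at 269, 251, 241 and 242 CPM (0.30 ± 0.12, edgeR adjusted p = 0.0341), but without day 0 replicate 1 or 4 or day 7 replicate 1 or 2 it was 0.15 to 0.30 (edgeR adjusted p = 0.0586 to 0.177). Without day 0 replicates 1 and 4 together it turned to -0.029 (edgeR adjusted p = 0.717). From 231 to 237 CPM on day 10 it went to 174 to 183 on day 12. On day 14 it was at 107, 105, 102 and 118 CPM, 0.529 times the day 0 level and below every day 0 library (-0.92 ± 0.12, edgeR adjusted p = 1.3e-07).

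En1 had few counts, 156 to 396 a library. It lies on chromosome 1 at 120602418 to 120607992 (mm10, plus strand). The day 0 libraries held 4.75, 9.32, 6.90 and 4.76 CPM, and the coefficient of variation of 33.8% was the highest of any member on any day. En1 was at 7.53, 7.97, 8.53 and 7.73 CPM on day 3 and 7.50, 5.46, 6.32 and 7.45 CPM on day 5, and neither day was called (0.30 with edgeR adjusted p = 0.0962 and 0.053 with 0.794). Its highest level was on day 10, at 7.76, 9.05, 10.1 and 7.89 CPM (0.43 ± 0.16, edgeR adjusted p = 0.0237), but without day 0 replicate 1 or 4 or day 10 replicate 3 it was 0.32 to 0.36 (edgeR adjusted p = 0.0869 to 0.0965). On day 14 it was at 3.82, 4.00, 4.69 and 3.74 CPM, its lowest level (-0.66 ± 0.16, edgeR adjusted p = 0.000854), but without day 0 replicates 2 and 3 the call was lost, at -0.15 (edgeR adjusted p = 0.396).

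Tcf4 fell least of the 7 members that were lower on day 14. Its day 0 libraries held 123, 183, 172 and 121 CPM. Those of day 3, at 121, 125, 116 and 114 CPM, reached the lower day 0 pair and lay below the higher one (-0.33 ± 0.095, edgeR adjusted p = 0.0035). With only the 8 libraries of days 0 and 3 in the fit the call was lost, at -0.36 (edgeR adjusted p = 0.0564), and without day 0 replicates 2 and 3 it was 0.018 (edgeR adjusted p = 0.84). The level was 169.7 to 178 CPM on day 7 and 163 to 175 CPM on day 10, with differences from day 0 of 0.22 and 0.19 that did not pass (edgeR adjusted p = 0.0537 and 0.0894). On day 14 it was at 105, 101, 105 and 109 CPM, below every day 0 library (-0.51 ± 0.095, edgeR adjusted p = 3.44e-05), but without day 0 replicates 2 and 3 the call was lost, at -0.14 (edgeR adjusted p = 0.0964).

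Runx2 was the only member called higher on all 6 wound days. It lies on chromosome 17 at 44495987 to 44814797 (mm10, minus strand). Its day 0 libraries held 8.35, 6.54, 4.67 and 6.57 CPM, with replicate 1 highest and replicate 3 lowest, a different order from the fibroblast lineage factors. It rose to 9.47, 9.57, 10.03 and 10.1 CPM on day 3 (0.58 ± 0.11, edgeR adjusted p = 2.6e-05) and 11.5, 11.2, 11.4 and 11.02 CPM on day 5 (0.79 ± 0.11, edgeR adjusted p = 3.47e-07). On day 7 it stood at 17.2, 16.6, 15.1 and 15.5 CPM, 2.47 times day 0 (1.30 ± 0.11, edgeR adjusted p = 4.51e-11), and on day 10 at 16.7, 16.7, 15.7 and 15.5 CPM (1.31 ± 0.11, edgeR adjusted p = 6.34e-11). It dipped on day 12 to 10.3, 8.33, 10.01 and 9.60 CPM, where replicate 2 lay just below the highest day 0 library (0.55 ± 0.11, edgeR adjusted p = 0.000111). It then rose again on day 14 to 13.2, 12.8, 14.2 and 14.4 CPM (1.06 ± 0.11, edgeR adjusted p = 1.35e-09). The antisense gene Runx2os1 covers 5.87% of the Runx2 exon bases and had no row in the table.

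Steps between consecutive wound days compare levels without day 0, although the day 0 spread still enters the SE through the common fit. With only the 8 libraries of a step in the fit, the counts of members called higher and lower were 5 and 1 from day 3 to day 5, 5 and 2 from day 5 to day 7, 1 and 3 from day 7 to day 10, 0 and 9 from day 10 to day 12 and 1 and 8 from day 12 to day 14. The shares of all genes in the same fits were 14.9% and 14.5%, 15.7% and 15.1%, 21.1% and 22.2%, 27.2% and 26.7%, and 27% and 28.2%. From day 3 to day 5, 3 members rose (Twist1, Snai2 and Zeb1) and Snai1 fell, where 12.9% of all genes rose and 11.4% fell. The increase of Zeb1 was 0.26 (edgeR adjusted p = 0.0177), but without day 3 replicate 1, 2 or 4 or day 5 replicate 2 or 3 it was 0.21 to 0.23 (edgeR adjusted p = 0.0637 to 0.0967). The decrease of Snai1 was -0.32 (edgeR adjusted p = 0.0455), but without day 5 replicate 1, 2 or 4 it was -0.32 to -0.28 (edgeR adjusted p = 0.0601 to 0.12). Without day 5 replicate 2 the count of members called in this step went from 4 to 2, in a fit where the share of all genes was not taken. From day 5 to day 7, 4 members rose (Twist1 by 0.70, Snai2 by 0.56, Runx2 by 0.52 and Tcf4 by 0.32, edgeR adjusted p = 4.14e-06, 1.58e-06, 0.000307 and 0.0104), against 13.9% of all genes. Snai1 fell again, at -0.58 ± 0.12 (edgeR adjusted p = 0.000366), against 14.6% of all genes. For Tcf4, without day 5 replicate 4 it was 0.25 (edgeR adjusted p = 0.0525).

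From day 7 to day 10, 0 members rose and 2 fell by edgeR (1 rose at an unadjusted p under 0.05, 0 by DESeq2 and 1 by limma), beside 14.3% of all genes higher and 18% lower. Zeb2 went from 194 to 238 to 161 to 168 CPM (-0.40 ± 0.14, edgeR adjusted p = 0.0232), but without day 7 replicate 1 or 2 or day 10 replicate 4 it was -0.39 to -0.36 (edgeR adjusted p = 0.0536 to 0.0712). Zeb1 went from 69.7 to 74.7 to 59.8 to 63.8 CPM (-0.21 ± 0.081, edgeR adjusted p = 0.0479), but without day 7 replicate 1, 2, 3 or 4 or day 10 replicate 1, 2, 3 or 4 it was -0.22 to -0.19 (edgeR adjusted p = 0.0604 to 0.118). With any 1 of the 8 libraries left out, 0 or 1 members were called in this step, and the share of all genes in those fits was not taken.

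Between days 10 and 12, 7 members fell (En1, Prrx1, Twist1, Twist2, Zeb1, Tcf4 and Runx2) and 0 rose (0 by edgeR at an unadjusted p under 0.05, DESeq2 or limma), where 20.7% of all genes fell and 18.7% rose. All 7 had every day 12 library below every day 10 library, as had 23.5% of all genes. The largest step was that of Runx2, at -0.76 ± 0.10 (edgeR adjusted p = 1.02e-06), followed by En1 at -0.48 ± 0.16 (edgeR adjusted p = 0.0157) and Zeb1 at -0.42 ± 0.081 (edgeR adjusted p = 0.000133). For En1, without day 10 replicate 3 or day 12 replicate 4 it was -0.43 to -0.40 (edgeR adjusted p = 0.0537 to 0.0677). For Twist1, the step of -0.32 was likewise lost in 1 case, since without day 12 replicate 4 it was -0.26 (edgeR adjusted p = 0.0513). For Twist2, the step of -0.32 (edgeR adjusted p = 0.0407) was the least firm, since without day 10 replicate 1, 2, 3 or 4 or day 12 replicate 2, 3 or 4 it was -0.33 to -0.27 (edgeR adjusted p = 0.0601 to 0.13). Without day 12 replicate 4 the count went from 7 to 4, in a fit where the share of all genes was not taken. It was also 4 when only library totals were used for scaling, which called 15.2% of all genes lower.

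From day 12 to day 14, 8 members fell and Runx2 rose, where 25.3% of all genes fell and 19.9% rose. Twist1 fell by 1.06, Twist2 by 0.91, Snai1 by 0.75, Prrx1 by 0.74 and En1 by 0.62 on the log2 scale (edgeR adjusted p = 3.02e-09, 2.12e-06, 1.53e-05, 1.1e-05 and 0.00294). Zeb2, Zeb1 and Tcf4 fell by 0.59, 0.45 and 0.34 (edgeR adjusted p = 0.000859, 6.42e-05 and 0.00497). Runx2 rose by 0.51 ± 0.10 (edgeR adjusted p = 0.000201). Snai2 was the 1 member not called, with a difference of 0.071 and an interval of -0.083 to 0.23 (edgeR adjusted p = 0.456). None of these calls was lost when any 1 library was left out. The 7 fibroblast markers were all lower at day 14 than at day 0, and their sum went from 40364 to 46952 CPM at day 12 to 16388 to 19578 at day 14. Over the same step the 8 hair follicle markers had sums of 3136 to 4206 and 2879.8 to 3842 CPM, against 192 to 1372 on day 0. The part of either list in the members' late fall was not tested.

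Several day 0 comparisons turned on which day 0 libraries were used. En1, Prrx1, Twist1, Twist2, Zeb1, Zeb2 and Tcf4 were all higher in day 0 replicates 2 and 3, the libraries rich in fibroblast markers, than in replicates 1 and 4, while Snai1, Snai2 and Runx2 did not follow that split. The 6 skeletal muscle markers stood opposite, at 17062 and 17366 CPM in replicates 2 and 3 and 28686 and 29726 CPM in replicates 1 and 4. With replicates 1 and 4 left out, the counts of members called higher and lower were 3 and 5 at day 3, 3 and 3 at day 5, 4 and 1 at day 7, 3 and 1 at day 10, 3 and 6 at day 12 and 2 and 7 at day 14. Of all genes in that fit, 31.5% were higher and 32.6% lower at day 3, 29% and 28.5% at day 5, 25.6% and 22.3% at day 7, 24.6% and 24.8% at day 10, 22.8% and 24.3% at day 12 and 28.9% and 32.7% at day 14. With replicates 2 and 3 left out they were 6 and 2 at day 3, 8 and 1 at day 5, 9 and 0 at day 7, 10 and 0 at day 10, 6 and 0 at day 12 and 2 and 5 at day 14. Here the shares of all genes were 32.1% and 29.5%, 28.7% and 28.1%, 25% and 24.6%, 20.9% and 24.9%, 21.5% and 22%, and 29.2% and 26.9%. This choice of pairs was made after seeing the data. Of the 37 calls against day 0, 26 held under both. They were the rises of Snai1 and Runx2 on days 3, 5, 7, 10 and 12, of Runx2 on day 14, of Snai2 on days 7, 10, 12 and 14, of Zeb2 on days 3 and 5 and of Zeb1 on day 7. The falls among them were those of Snai2 on day 3, of Twist1 on days 3, 5 and 14 and of Prrx1, Twist2, Zeb1 and Zeb2 on day 14. With only the 8 libraries compared in the fit, calls were also lost for Zeb1 at day 5, at 0.19 (edgeR adjusted p = 0.258), for Prrx1 at day 7, at 0.26 (edgeR adjusted p = 0.325), for Twist2 at day 7, at 0.39 (edgeR adjusted p = 0.0823), and for En1 at day 10, at 0.44 (edgeR adjusted p = 0.15).

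**Figure D4:**
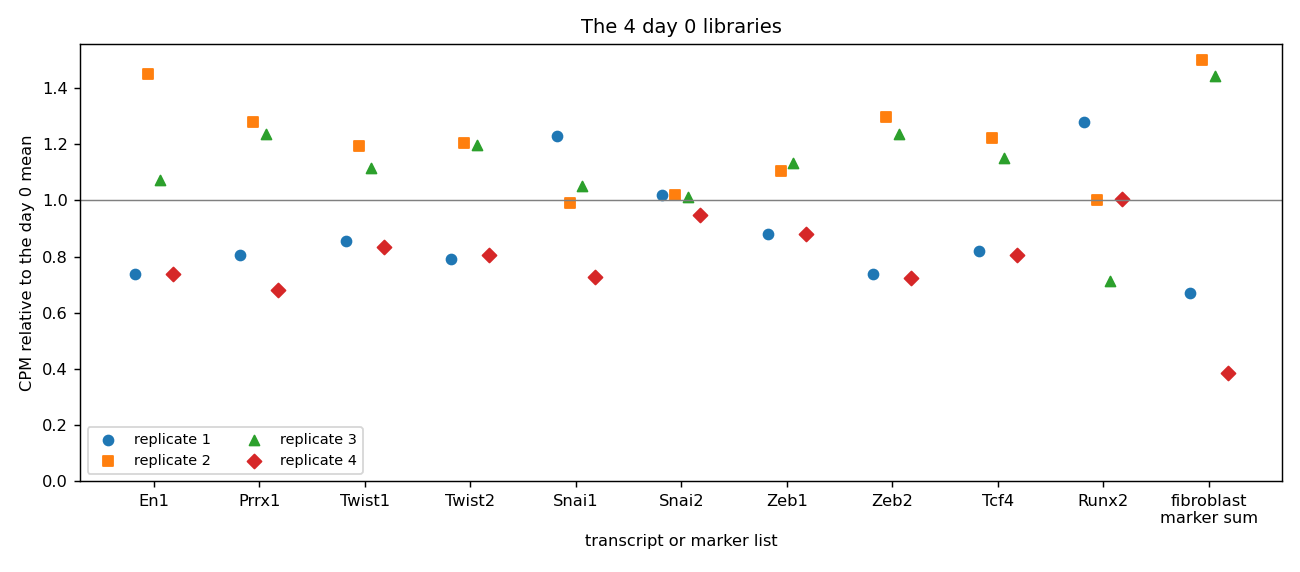
Level of each transcript and of the summed dermal fibroblast markers in the 4 day 0 libraries, each divided by its day 0 mean (axis from 0), with 1 marker shape for each replicate number. Replicates 2 and 3 lay above replicates 1 and 4 for 7 of the 10 transcripts and for the marker sum, and not for Snai1, Snai2 and Runx2.

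Single day 0 libraries also decided transcripts that were not called. Without day 0 replicate 2, calls were gained for En1 at day 3 (log2 fold change 0.54, edgeR adjusted p = 0.00167), Prrx1 at day 5 (log2 fold change 0.27, edgeR adjusted p = 0.0361), En1 at day 7 (log2 fold change 0.59, edgeR adjusted p = 0.00109), Zeb2 at day 7 (log2 fold change 0.43, edgeR adjusted p = 0.0091), Tcf4 at day 7 (log2 fold change 0.33, edgeR adjusted p = 0.0033), Prrx1 at day 10 (log2 fold change 0.33, edgeR adjusted p = 0.0138), Zeb1 at day 10 (log2 fold change 0.22, edgeR adjusted p = 0.0426) and Tcf4 at day 10 (log2 fold change 0.31, edgeR adjusted p = 0.00656). Without day 0 replicate 3 they were gained for Zeb2 at day 7 (log2 fold change 0.40, edgeR adjusted p = 0.0202), Tcf4 at day 7 (log2 fold change 0.30, edgeR adjusted p = 0.0146), Prrx1 at day 10 (log2 fold change 0.31, edgeR adjusted p = 0.0276), Zeb1 at day 10 (log2 fold change 0.23, edgeR adjusted p = 0.0277) and Tcf4 at day 10 (log2 fold change 0.27, edgeR adjusted p = 0.026). Either way the day 10 count of members called went from 5 to 8, and the day 12 count from 6 to 3. The share of all genes called in those fits was not taken, so these counts have no background. Without day 0 replicate 1, calls were gained for Twist1 at day 7 (log2 fold change -0.27, edgeR adjusted p = 0.0298), Tcf4 at day 12 (log2 fold change -0.24, edgeR adjusted p = 0.0298) and Snai1 at day 14 (log2 fold change 0.31, edgeR adjusted p = 0.0296). Without day 0 replicate 4 they were gained for Prrx1 at day 3 (log2 fold change -0.26, edgeR adjusted p = 0.0156), Twist1 at day 7 (log2 fold change -0.27, edgeR adjusted p = 0.0228), Prrx1 at day 12 (log2 fold change -0.31, edgeR adjusted p = 0.00681) and Tcf4 at day 12 (log2 fold change -0.25, edgeR adjusted p = 0.0228).

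Levels were compared between members per length, as FPKM (fragment counts divided by gene length and library total). On day 0 Twist1 was the most abundant, at 40.8 FPKM, with a range of 34.2 to 48.7 that no other member reached. Twist2 (18.6), Zeb2 (17.97) and Prrx1 (16.2) followed with overlapping ranges, then Snai2 (7.45), Snai1 (4.59), En1 (2.46) and Runx2 (0.919). Among these last 4, the ranges of Snai1 and En1 overlapped. On day 3 the order was Zeb2 (27.6), Snai1 (20.8), Twist2 (18.9), Twist1 (16.1) and Prrx1 (13.95), with no overlap between neighbours. On day 14 it was Twist1 (17.4), Snai2 (13.4), Twist2 (12.4) and Zeb2 (10.1), and the range of Snai2 overlapped those of both Twist2 and Zeb2. The lengths behind the deposited FPKM values depart from the longest coding transcript in GENCODE (mm10) for 4 members. The file implies 41309 bases for Zeb1 and 44311 for Tcf4, 7.12 and 5.17 times that transcript, 12296 for Prrx1 (1.88 times) and 1335 for Twist2 (0.53 times). All annotated exons together come to 11066 bases for Prrx1, near the implied length, but to 19942 for Zeb2, where the file implies 9779. The places of Prrx1, Twist2 and Zeb2 in the order, and the size of the Twist1 to Twist2 ratio, rest on those lengths, and Zeb1 and Tcf4 were left out of the order.

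Across the 28 libraries, Prrx1 and Zeb1 had the most similar courses of any 2 members (Pearson r of log2 CPM = 0.94), followed by Tcf4 with Prrx1 (r = 0.89) and Prrx1 with Twist2 (r = 0.88). The lowest values were those of Snai2 with Zeb2 (r = −0.59) and of Snai1 with Snai2 (r = −0.39). These correlations share libraries, days and scaling and are descriptions. Of all other genes tested, those most like Snai1 were Sptlc2 (r = 0.97), Slc11a1 (r = 0.97) and Itgb2 (r = 0.97), among them the leukocyte integrin chain Itgb2 and the phagosomal metal transporter Slc11a1. Those most like Snai2 were Wnt5a (r = 0.96), Sox4 (r = 0.95) and Adamts17 (r = 0.95), of which Wnt5a is a secreted Wnt ligand and Sox4 a transcription factor of progenitor cells. Those most like Twist1 were Mxra7 (r = 0.95), Osr2 (r = 0.94) and Rftn2 (r = 0.93), and those most like Twist2 were Ldb2 (r = 0.93), Lix1l (r = 0.93) and Creb3l3 (r = 0.92). Zeb2 was most like St8sia4 (r = 0.98), Dennd5a (r = 0.98) and Cflar (r = 0.98), and Zeb1 most like Pde10a (r = 0.95), Sec23a (r = 0.95) and Pdgfc (r = 0.95). Prrx1 was most like Zfp9 (r = 0.97), Prrc1 (r = 0.96) and Pkd2 (r = 0.96), En1 most like Lix1l (r = 0.89), Creb3l1 (r = 0.88) and Arl4c (r = 0.87) and Tcf4 most like Cdon (r = 0.95), Antxr1 (r = 0.95) and Zfhx4 (r = 0.94). Runx2 was most like Dcakd (r = 0.91), Col18a1 (r = 0.90) and Fdxr (r = 0.89), of which Col18a1 encodes a basement membrane collagen.

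Epithelial genes that EMT factors are known to repress were low through day 10 and many were higher on day 14. The list of 15 was chosen with earlier results of these data known. Of the 15, 14 were lower than day 0 at day 3, 15 at day 5, 12 at day 7 and 12 at day 10, and 0 were higher on these days, where 34.8%, 30.6%, 24.8% and 26.9% of all genes were lower. On day 12, 6 were higher and 0 lower, and at day 14, 10 were higher and 3 lower, where 21.7% and 25.6% of all genes were higher and lower at day 12 and 28.2% and 34.5% at day 14. Each of these counts of 0 by edgeR was also 0 at an unadjusted p under 0.05 and by DESeq2 and limma. The median log2 fold change of the list was −1.28 on day 3 and 0.43 on day 14. Ocln, a tight junction protein, went from 15.4 CPM on day 0 to 3.46 on day 3 (log2 fold change -2.15 ± 0.10, edgeR adjusted p = 1.38e-16), and the claudin Cldn3 from 2.94 to 0.238 CPM (log2 fold change -3.61 ± 0.37, edgeR adjusted p = 2.23e-09). The adherens junction gene Cdh1, the best known target of Snai1, stood at -1.05 at day 3 and -0.77 at day 10 (both called) and at 0.032 at day 14. On day 14 the largest increases among genes of at least 1 CPM were those of 2 transcription factors that maintain the epithelial state, Ovol1 (log2 fold change 1.34 ± 0.10, edgeR adjusted p = 2.37e-12) and Grhl2 (log2 fold change 1.03 ± 0.12, edgeR adjusted p = 1.58e-08). The 6 suprabasal keratinocyte markers summed to 3271 to 3675 CPM at day 0, 901 to 1248 at day 3, 3064 to 3405 at day 12 and 1078 to 1453 at day 14, when all 6 were lower. The 6 basal keratinocyte markers summed to 3905 to 8174, 3565 to 4436, 3989.7 to 4040.2 and 4788 to 5980.2 CPM on the same days. All 8 hair follicle markers were lower on day 3 and higher on days 12 and 14. The part of these cells in the level of the epithelial transcripts was not tested.

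The motif CAGGTG or CACCTG stood in the promoter windows of 7 of the 9 epithelial genes with an entry, against 20.2% of all windows and 23% of the genes of the count table with a window. Cldn1 and Ovol2 were the 2 without it, and Cdh1, Esrp1, Esrp2, Ovol1, Grhl2 and Pkp3 had no entry. The 250 bases before the start of Epcam (chr17:87635729-87635978) and of Crb3 (chr17:57061951-57062200), both on the plus strand of GRCm38.p6, are shown as 2 genes of the list with more than 1 match, in capitals.
Epcam: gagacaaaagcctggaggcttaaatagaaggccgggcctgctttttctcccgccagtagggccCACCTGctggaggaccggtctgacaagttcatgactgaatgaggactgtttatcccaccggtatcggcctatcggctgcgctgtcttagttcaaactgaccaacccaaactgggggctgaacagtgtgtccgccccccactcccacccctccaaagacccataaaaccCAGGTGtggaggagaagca
Crb3: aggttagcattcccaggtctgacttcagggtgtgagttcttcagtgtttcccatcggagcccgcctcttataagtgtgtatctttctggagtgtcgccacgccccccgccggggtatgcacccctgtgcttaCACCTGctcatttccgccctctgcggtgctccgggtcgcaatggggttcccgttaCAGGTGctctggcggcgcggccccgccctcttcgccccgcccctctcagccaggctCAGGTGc
The matches begin 187 and 19 bases before the start of Epcam and 118, 63 and 7 bases before the start of Crb3 used here. Crb3 has a second window with a later start, before which matches begin 148, 93 and 37 bases. On day 3 Epcam, an epithelial adhesion protein, stood at -1.48 and Crb3, a polarity protein, at -0.99 against day 0 (edgeR adjusted p = 6.8e-16 and 4.94e-05).

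Mesenchymal genes that the EMT programme is known to raise were mostly higher from day 5 to day 10. Of 12, 5 were higher and 3 lower than day 0 at day 3, 9 and 0 at day 5, 9 and 1 at day 7, 8 and 1 at day 10, 5 and 3 at day 12 and 5 and 6 at day 14. Of all genes, 31.8% were higher and 34.8% lower at day 3, 29% and 30.6% at day 5, 25.6% and 24.8% at day 7, 23.5% and 26.9% at day 10, 21.7% and 25.6% at day 12 and 28.2% and 34.5% at day 14. With only the 8 libraries compared, 6 were higher and 0 lower at day 5, against 23% and 26.3% of all genes. With library totals only, 7 were higher and 2 lower at day 12, against 33.6% and 16.3%. Without day 0 replicate 1, 8 were higher at day 3, in a fit where the share of all genes was not taken. The 0 of day 5 was the same at an unadjusted p under 0.05 and by DESeq2 and limma. The matrix glycoprotein Tnc rose from 44.9 to 1539.8 CPM on day 3 (log2 fold change 5.10 ± 0.45, edgeR adjusted p = 1.02e-10), and Postn from 328 to 5237 CPM on day 10 (log2 fold change 4.00 ± 0.13, edgeR adjusted p = 8.49e-19). The day 0 level of Tnc was spread from 10.4 to 110 CPM, and without day 0 replicate 1 its day 3 log2 fold change was 6.11 (edgeR adjusted p = 8.76e-15). On day 14 the calcium-binding protein gene S100a4 (log2 fold change -1.46 ± 0.087, edgeR adjusted p = 6.18e-14) and the gelatinase gene Mmp2 (log2 fold change -1.17 ± 0.16, edgeR adjusted p = 4.27e-07) had fallen furthest, while Cdh11, the fibroblast cadherin, was still at 1.60 (edgeR adjusted p = 9.75e-17). The EMT label of the list covers genes that resting and activated fibroblasts also express.

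Relatives and partners of the members moved in both directions. Of 10 tested of 12, 2 were higher and 6 lower at day 3, 5 and 3 at day 10 and 3 and 5 at day 14, where 31.8% and 34.8%, 23.5% and 26.9%, and 28.2% and 34.5% of all genes were. On day 10, 1 was lower without day 0 replicate 4. On day 14, 2 were higher and 3 lower without day 14 replicate 4, in a fit where the share of all genes was not taken. With only the 8 libraries compared they were 3 and 2, against 29.6% and 27.5% of all genes. With library totals only they were 3 and 3, against 36.1% and 28.1%. The runt factors Runx1 and Runx3, which are prominent in leukocytes, rose on day 3 (log2 fold change 1.24 ± 0.076, edgeR adjusted p = 4.01e-14 and log2 fold change 1.61 ± 0.13, edgeR adjusted p = 1.13e-11), whereas their common partner Cbfb stood at 0.012 (edgeR adjusted p = 0.841). Snai3 went from 4.14 CPM on day 0 to 0.923 on day 5 (log2 fold change -2.16 ± 0.39, edgeR adjusted p = 3.01e-05). Its day 0 libraries ranged from 1.06 to 8.87 CPM and overlapped those of day 5, and without day 0 replicate 4 the difference was -1.46 (edgeR adjusted p = 0.000361). The forkhead factor Foxc1 went from 28.4 to 5.11 CPM on day 3 (log2 fold change -2.48 ± 0.12, edgeR adjusted p = 7.03e-16). Tcf3, the E protein related to Tcf4, was higher on day 14 (log2 fold change 0.59 ± 0.042, edgeR adjusted p = 1.74e-12), when Tcf4 was lower.

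Other transcription factors of the dermal mesenchyme also moved in both directions. Of 13 tested of 14, 2 were higher and 5 lower at day 3, 7 and 4 at day 5, 5 and 4 at day 7, 4 and 3 at day 10, 4 and 4 at day 12 and 2 and 6 at day 14. The shares of all genes on these days were 31.8% and 34.8%, 29% and 30.6%, 25.6% and 24.8%, 23.5% and 26.9%, 21.7% and 25.6%, and 28.2% and 34.5%. On day 5, 3 rather than 7 were higher without day 0 replicate 4 and also with only the 8 libraries compared, where 23% of all genes were higher. With the 8 libraries 2 were higher and 2 lower on day 12, against 18.1% and 21.5% of all genes. Osr2 was lower on all 6 wound days, from 43.1 CPM at day 0 to 6.71 CPM at day 3 (log2 fold change -2.68 ± 0.17, edgeR adjusted p = 9.76e-14), 27.3 CPM at day 12 and 8.93 CPM at day 14, and Foxd1, a lineage marker of dermal cells, was lower at day 3 (log2 fold change -2.82 ± 0.38, edgeR adjusted p = 2.22e-07). Sox11 rose most on day 10, from 0.850 to 8.03 CPM (log2 fold change 3.25 ± 0.29, edgeR adjusted p = 3.39e-10), and Sox4 on day 14, from 29.6 to 86.8 CPM (log2 fold change 1.55 ± 0.095, edgeR adjusted p = 9.5e-14).

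Among 9 tested of 12 skeletogenic partners and targets of Runx2, 3 were higher and 4 lower at day 3, 3 and 4 at day 5, 4 and 2 at day 7, 6 and 2 at day 10, 6 and 0 at day 12 and 6 and 1 at day 14. In the same order of days, 31.8% and 34.8%, 29% and 30.6%, 25.6% and 24.8%, 23.5% and 26.9%, 21.7% and 25.6%, and 28.2% and 34.5% of all genes were higher and lower. The 1 lower on day 14 was lost without day 0 replicate 1, day 14 replicate 1 or day 14 replicate 2, with only the 8 libraries compared and with library totals only. On day 12, 1 was lower by edgeR at an unadjusted p under 0.05 and 0 by DESeq2 or limma. The matrix protein gene Spp1, which macrophages also express, rose from 25.00 to 676 CPM on day 3 (log2 fold change 4.76 ± 0.34, edgeR adjusted p = 1e-12). The osteoblast factor Sp7 stayed near its limit of detection on day 0 (0.200 CPM) and was at 1.34 CPM on day 10 (log2 fold change 2.70 ± 0.41, edgeR adjusted p = 3.45e-06). The difference of Sp7 without day 0 replicate 2 was 3.40 (edgeR adjusted p = 3.88e-07). Msx2 and Dlx3, homeobox genes known from both bone and hair follicles, fell on day 3 (log2 fold change -3.87 ± 0.41, edgeR adjusted p = 3.22e-09 and log2 fold change -2.70 ± 0.25, edgeR adjusted p = 1.64e-10) and were higher on day 14 (log2 fold change 3.93 ± 0.27, edgeR adjusted p = 1.4e-12 and log2 fold change 3.61 ± 0.22, edgeR adjusted p = 1.1e-13). Without day 0 replicate 1 the differences of Msx2 were -3.15 (edgeR adjusted p = 2.98e-11) on day 3 and 4.68 (edgeR adjusted p = 4.81e-18) on day 14. Msx2 is also 1 of the 8 hair follicle markers, whose sum was 192 to 1372 CPM at day 0, 4.02 to 10.4 at day 3, 729 to 995 at day 7, 236 to 270.3 at day 10, 3136 to 4206 at day 12 and 2879.8 to 3842 at day 14. The part of hair follicle RNA in the level of Runx2 was not tested.

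**Figure D5:**
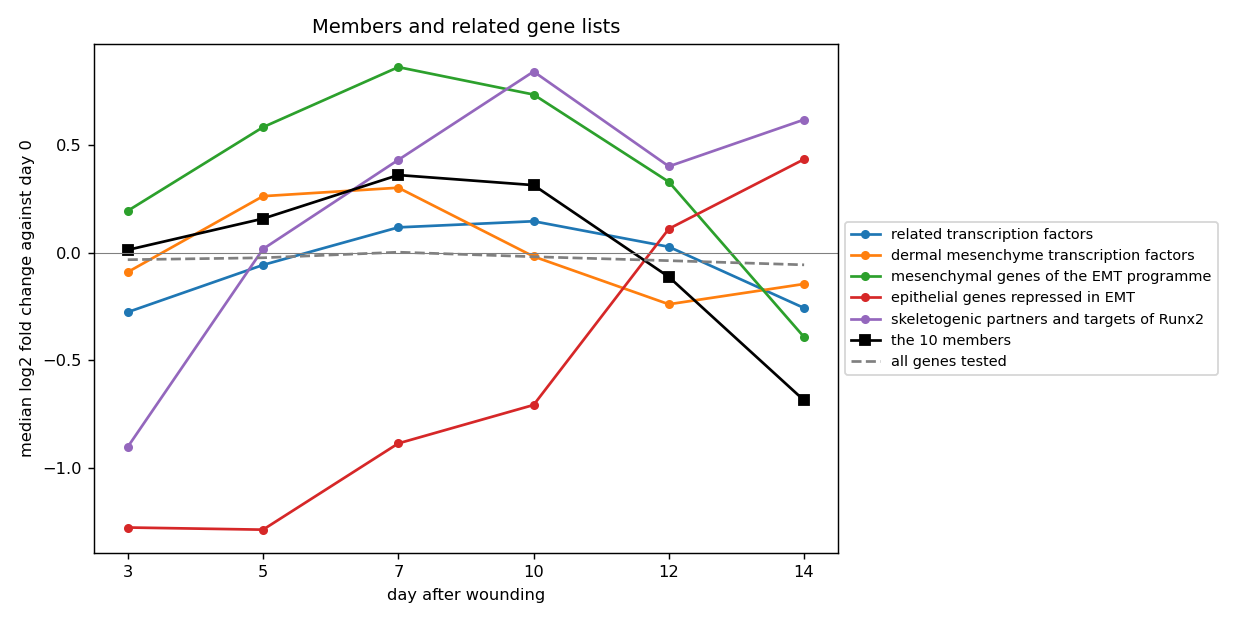
Median log2 fold change against day 0 of the 10 transcripts (black squares), of 5 related gene lists (coloured) and of all genes tested (dashed) by day. The epithelial list went from −1.28 at day 3 to 0.43 at day 14, while the 10 transcripts went from 0.36 at day 7 to −0.69 at day 14.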

How the data were processed

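RNA of skin at the wound site, which the study's methods call total mRNA, was extracted with TRIzol. It was sequenced from VAHTS Universal V6 libraries, 4 for each of 7 days. The authors deposited raw counts per gene symbol for 29068 genes, without normalization, and an FPKM table that follows from the same counts, the library total and 1 length per gene. The submitters' processing notes name fastp, R 3.2.0 and mm10. The aligner, the counter and the strand setting are not given in the sources used here. Groups and replicate numbers came from the sample titles.

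Tests used edgeR 4.0.16 under R 4.3.3, in 1 fit of 28 libraries with day as the group (filterByExpr, TMM, glmQLFit and glmQLFTest, two-sided), which left 21 residual degrees of freedom. P-values were adjusted over 18107 genes by the Benjamini-Hochberg method. Log2 CPM used a prior count of 2. Single comparisons were also checked by exact permutation of 4 against 4 libraries, whose smallest two-sided p is 0.0286. Some edgeR calls of members did not reach it. Against day 0 their permutation p was 0.143 for Tcf4 on day 3, 0.171 for Zeb1 and 0.0857 for Zeb2 on day 5. It was 0.343 for Prrx1 on day 7 and 0.143 for En1 on day 10. On day 12 it was 0.171 for Twist1, 0.0857 for Zeb1, 0.4 for Zeb2 and 0.0571 for Runx2. From day 3 to day 5 it was 0.114 for Zeb1. The other edgeR calls of members had a permutation p of 0.0286. FPKM served for levels between genes, with no test. On simulated counts for day 3 against day 0, edgeR recovered 76 of 98 genes changed by 1 and 89 of 100 changed by 2 on the log2 scale, with 12 false calls among 17724 genes tested. The simulation changed few genes and gave each gene the same spread on every day. The real day 0 libraries were more spread, at 26.4% against 5.70% to 10.8% on wound days. These figures therefore do not measure the error of the real comparisons with day 0. Counts per library limit the precision to counting error at least, and a count of 0 allows up to 3.

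The 10 members and the gene lists were chosen with earlier results of these data known. Named besides the members were, from each of 5 lists, the 2 largest increases and the 2 largest decreases against day 0 on any wound day (adjusted p under 0.05, at least 1 CPM on average in the group where the gene was higher), and per member the 3 genes with the highest Pearson r over 28 libraries. Cdh1, Cdh11, Cbfb, Tcf3, Sp7, Epcam and Crb3 were named outside this rule after their values were seen. Trac, 1 of the marker genes, was not matched. Promoter windows came from RefSeq (GRCm38.p6) and positions from GENCODE on mm10. Alternatives were DESeq2 1.42.0, its size factors in edgeR, library totals only, no filter, the 8 libraries of a comparison alone, a replicate block, limma 3.58.1 on log2(FPKM + 1) and log2(FPKM + 0.1), each library left out, and, added after seeing the data, 2 pairs of day 0 libraries left out and the list genes refitted with each library left out, the 8 libraries alone and library totals only.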

Additional observations from a re-analysis of the deposited data

Results flagged for a closer look

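Within each day the 4 libraries of each transcript were searched for 1 library apart from the rest, by Dixon's test on log2 CPM. Of 70 sets of 4 libraries, 5 held such a library, where chance gives about 3.5. Zeb2 in day 5 replicate 4 was at 7.71, below 8.15 to 8.23 in the other three, and Zeb1 and Tcf4 were lowest in the same library. Zeb2 in day 14 replicate 4 was at 6.72, above 6.46 to 6.50. Snai1 in day 7 replicate 4 was at 4.08, below 4.33 to 4.36. Snai2 in day 0 replicate 4 was at 3.88, below 3.98 to 3.99. Prrx1 in day 10 replicate 2 was at 7.89, above 7.85 to 7.86, a gap that is small on any scale.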

How the results depend on the processing

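Of 110 member values (10 transcripts in 11 comparisons), 107 kept their direction and their side of the threshold under DESeq2, 109 under its size factors in edgeR, 106 without a filter, 96 with library totals only, 93 with the 8 libraries compared and 91 under either limma setting. Of 880 values with 1 library left out, 784 did. With the replicate block, 109 of 110 did, the counts of members called were 6, 5, 7, 5, 6 and 9 on the 6 wound days, and Tcf4 was gained on day 7. Replicate numbers only name libraries: deviations of same-numbered libraries from their day means had a median correlation of −0.00091 over 84 pairs, and 8 of 28 libraries were most like one with their own number. The count of members called between days 7 and 10 (2) was 1 with size factors, without a filter, with DESeq2 and with limma, 4 with 8 libraries and 0 to 1 with 1 library left out. Between days 10 and 12 (7) it was 4 with library totals only and with limma, and 4 to 8 with 1 library left out; between days 3 and 5 (4) it was 2 with limma on log2(FPKM + 0.1) and 2 to 4. On day 5 (5) it was 3 with 8 libraries and 9 without day 0 replicates 2 and 3, on day 12 (6) 3 with 8 libraries and 3 to 8, and on day 10 (5) 8 with limma on log2(FPKM + 1), 4 to 8 with 1 library left out and 10 without day 0 replicates 2 and 3. Shares of all genes called were taken only with library totals, the 8 libraries compared and the day 0 pairs left out. The counts given here for the other settings, the replicate block and limma among them, therefore have no background beside them. The cause of these shifts was not tested. Directions turned for En1 on day 12 (0.0928) and Tcf4 on day 10 against day 7 (0.0245) with library totals only, for En1 on day 12 (0.0938), Prrx1 on day 12 (0.0123) and Tcf4 on day 10 against day 7 (0.0194) with limma on log2(FPKM + 1) and for En1 on day 12 (0.14), Prrx1 on day 12 (0.0159) and Tcf4 on day 10 against day 7 (0.0237) with limma on log2(FPKM + 0.1). Without day 0 replicates 1 and 4 they turned for En1 on day 3 (-0.0296), Twist2 on day 3 (-0.18), En1 on day 5 (-0.28), Prrx1 on day 5 (-0.19), Twist2 on day 5 (-0.0829), Prrx1 on day 7 (-0.0288), Zeb2 on day 7 (-0.0640), Tcf4 on day 7 (-0.0230), Prrx1 on day 10 (-0.14), Twist1 on day 10 (-0.18), Tcf4 on day 10 (-0.0495) and Twist2 on day 12 (-0.0640), and without replicates 2 and 3 for Prrx1 on day 3 (0.32), Zeb1 on day 3 (0.18), Tcf4 on day 3 (0.0179), Tcf4 on day 5 (0.21), Twist1 on day 7 (0.0428), Zeb2 on day 10 (0.32), En1 on day 12 (0.40), Prrx1 on day 12 (0.27), Zeb2 on day 12 (0.11) and Tcf4 on day 12 (0.14). With 1 library left out, the log2 fold change crossed 0 for En1 on day 5 (-0.057 to 0.28), Twist1 on day 10 (-0.048 to 0.12), Zeb1 on day 3 (-0.061 to 0.014), Tcf4 on day 5 (-0.18 to 0.0036), Zeb2 on day 10 (-0.25 to 0.023), En1 on day 12 (-0.15 to 0.19), Twist2 on day 5 against day 3 (-0.012 to 0.21), Zeb2 on day 5 against day 3 (-0.13 to 0.035), Runx2 on day 10 against day 7 (-0.027 to 0.039) and Snai1 on day 14 (-0.037 to 0.31). Xist was counted 0 to 13 times a library and failed the filter, so the planned fit with it as a covariate was not run. Depth was alike in all libraries, and the spread within a day was largest on day 0 (26.4%).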
